A study of Mus musculus with 9 samples.

Results

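Fibrillar collagens and secreted matrix proteins were followed as 8 genes, taken from the deposited expression table by their symbols, of 23799 genes in all: Col1a1, Col1a2, Col3a1, Fn1, Sparc, Tgfbi, Tnc and Postn. The submitters' description calls the values CPM, but they were read here as RPKM, because low values came near whole reads only after multiplication by gene length. RPKM are reads divided by gene length and by a total of reads in the library. On that reading, levels of different genes can be set beside each other. RNA sequencing had been done on 9 libraries of mouse tumour cells sorted by a fluorescent label from metastases and primary tumours of a pancreatic ductal adenocarcinoma (PDAC) model and a breast cancer (BC) model. All PDAC cells were YFP-positive and carried p48-Cre, a driver of recombination in the pancreatic lineage, with p53F/+, KrasL/+ and ROSA-LSL-YFP. Number 1, taken at 25.67 weeks, also carried SIRT6F/F, and number 5, taken at 28.95 weeks, did not, so age and SIRT6 allele cannot be told apart from the number. The PDAC groups were liver metastasis (numbers 1 and 5), lung metastasis (number 1 only) and primary tumour (numbers 1 and 5). The BC cells were GFP-positive derivatives of the GFP-labelled mammary carcinoma line 4T1-eGFP, taken at 28 days as lung metastasis (numbers 4 and 6) and primary tumour (numbers 1 and 5). The labels describe the models as orthotopic and do not say that the BC libraries of a group came from separate animals, so the p-values rest on the spread between libraries, which may be technical.

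Type I collagen is a triple helix of chains encoded by Col1a1 and Col1a2, and type III collagen is a trimer of the Col3a1 chain. Both are secreted as procollagens, trimmed outside the cell and assembled into the fibrils that give connective tissue its strength. Fibronectin (Fn1) forms the fibres on which collagen is laid down and which integrins bind, while Sparc, Tgfbi, Tnc and Postn encode secreted proteins that bind collagen, fibronectin or cell-surface integrins and tune how cells attach. In tumours, fibrillar collagen is mostly known as a product of activated fibroblasts.

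The stretches around the gene starts are shown for the type I and type III collagen genes that could be matched and for Tgfbi, whose values ran differently from those of the collagens. Promoters of 6 of the 8 genes were found in RefSeq (build GRCm38.p6, a later build than that of the expression table), covering 250 bases before to 50 bases after the start. Capitals mark matches, on either strand, to 4 short motifs: TATAAA (the TATA box), CCAAT (the CCAAT box), GGGCGG (a GC box) and TGANTCA (the AP-1 site). The Col1a2 window lies on the plus strand at chr6:4505368-4505667, the Col3a1 window on the plus strand at chr1:45311288-45311587 and the Tgfbi window on the plus strand at chr13:56609336-56609635.
Col1a2: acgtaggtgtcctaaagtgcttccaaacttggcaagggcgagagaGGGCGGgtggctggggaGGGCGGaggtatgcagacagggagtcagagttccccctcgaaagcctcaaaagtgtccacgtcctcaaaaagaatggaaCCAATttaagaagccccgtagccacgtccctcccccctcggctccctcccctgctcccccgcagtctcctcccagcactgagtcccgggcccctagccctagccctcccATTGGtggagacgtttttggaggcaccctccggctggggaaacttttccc
Col3a1: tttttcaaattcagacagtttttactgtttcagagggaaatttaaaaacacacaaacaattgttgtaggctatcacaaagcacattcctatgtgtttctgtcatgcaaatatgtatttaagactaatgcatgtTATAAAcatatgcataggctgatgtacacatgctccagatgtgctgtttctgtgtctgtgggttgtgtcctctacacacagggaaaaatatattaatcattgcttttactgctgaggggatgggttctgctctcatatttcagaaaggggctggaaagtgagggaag
Tgfbi: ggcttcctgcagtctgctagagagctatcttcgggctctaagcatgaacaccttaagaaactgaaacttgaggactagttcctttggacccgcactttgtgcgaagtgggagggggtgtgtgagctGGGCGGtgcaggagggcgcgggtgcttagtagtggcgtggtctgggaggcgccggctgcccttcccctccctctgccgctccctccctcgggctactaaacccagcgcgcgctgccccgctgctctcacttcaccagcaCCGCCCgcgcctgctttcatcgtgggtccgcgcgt
The Col1a2 window held 2 CCAAT matches, starting at -109 and 1 relative to the start, and 2 GGGCGG matches at -205 and -188. The Col3a1 window held a single TATAAA match at -117, and the Tgfbi window held 2 GGGCGG matches at -124 and 16. None of the marked motifs overlapped another in these 3 windows. Of 32851 promoters in the same table, 37.4% held CCAAT, 35.7% GGGCGG, 13.6% TATAAA and 7.81% TGANTCA. Over the 8 promoters of the matched genes (Tnc and Postn have 2 starts each), CCAAT was found in 2, GGGCGG in 4, TATAAA in 4 and TGANTCA in 0. The Tnc windows overlap and share the same TATAAA and GGGCGG sites, so each of those counts holds 1 Tnc site 2 times. These matches describe letters only.

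Libraries differed in ways that bear on every value given here. Estimated reads on genes ran between 21300000 in the PDAC lung metastasis and 128000000 in BC primary 5, and genes above 0 between 9530 and 20478 in the same libraries. The fewest genes were listed in PDAC lung metastasis 1, PDAC primary 5 and BC lung metastasis 6. Of the genes with at least 5 RPKM in PDAC primary 1, 32.9% were under 0.1 RPKM in PDAC primary 5, and 17.9% of those in BC lung metastasis 4 were under 0.1 RPKM in BC lung metastasis 6, so a value at or near 0 in these libraries may be a failed estimate. The sum of 5 epithelial markers, a check on the labelled tumour cells, was 124 RPKM in the PDAC lung metastasis and 211 RPKM in PDAC liver metastasis 5, and lay between 2070 and 13400 RPKM in the other 7 libraries. Haemoglobin genes summed to between 185000 and 349000 RPKM in the 3 PDAC metastases and to between 259 and 58600 RPKM in the PDAC primaries. In sorted bulk samples such as these, fewer cells of a type and less RNA per cell cannot be told apart.

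The 8 genes were a small share of each library, and 3 of them carried nearly all of it. Their summed level was 152 and 139 RPKM in the PDAC liver metastases, 140 RPKM in the PDAC lung metastasis, 44.6 and 210 RPKM in the PDAC primaries, 221 and 337 RPKM in the BC lung metastases, and 302 and 468 RPKM in the BC primaries. Sparc, Fn1 or Tgfbi was the highest of the 8 in every library. Sparc led in all BC libraries except BC primary 5, where Fn1 made up 42.4% of the sum and Sparc 41.5%. Tgfbi led in PDAC liver metastasis 5, with 75.0% of the sum, and in the PDAC lung metastasis, with 48.7%. The 3 collagens together made up between 0.017% of the sum, in the PDAC lung metastasis, and 12.4%, in BC primary 5.

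**Figure D1:**
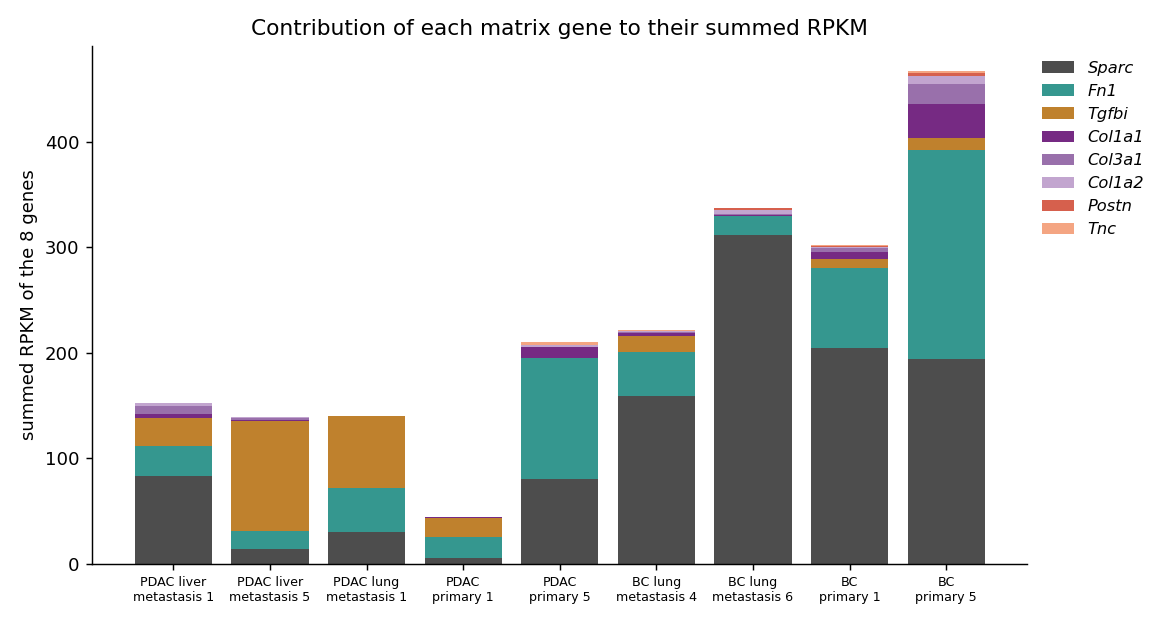
Summed RPKM of the 8 matrix genes in each of the 9 libraries, stacked by gene. Sparc and Fn1 fill most of the BC columns, Tgfbi fills most of the column of PDAC liver metastasis 5, and the collagens are a visible band mainly in BC primary 5, whose sum of 468 RPKM is the highest.

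All 3 fibrillar collagens were highest in BC primary 5, and their sum there, 58.3 RPKM, stood apart from 0.0239 to 14.1 RPKM in the PDAC libraries and 4.83 to 11.4 RPKM in the other 3 BC libraries. Col1a1 was 3.65 and 1.22 RPKM in the PDAC liver metastases, 0.0239 RPKM in the PDAC lung metastasis, and 0.868 and 10.4 RPKM in the PDAC primaries. It was 2.91 and 0.548 RPKM in the BC lung metastases, against 7.06 and 31.7 RPKM in the BC primaries. Within BC, both metastases were therefore below both primaries, while the PDAC liver metastases lay between the 2 PDAC primaries and the lung metastasis lay below them. On the log2(RPKM + 1) scale, which understates differences between low values, the difference was -2.72 ± 1.26 for BC lung metastasis minus BC primary (SE, limma adjusted p = 0.974) and -0.52 ± 1.26 for PDAC liver metastasis minus PDAC primary (limma adjusted p = 0.991). The PDAC lung metastasis, a single library assumed to vary like the other groups, differed by -2.17 ± 1.54 (limma adjusted p = 0.602).

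Col1a2, the partner chain of type I collagen, did not follow Col1a1 in every library. It was 3.27 and 0.652 RPKM in the PDAC liver metastases, listed at 0 in the PDAC lung metastasis, and 0.558 and 1.42 RPKM in the PDAC primaries. It was 0.67 and 3.6 RPKM in the BC lung metastases, against 0.994 and 7.61 RPKM in the BC primaries. All pairs of groups with 2 libraries overlapped, since 1 library of each was near 1 RPKM or below. The ratio of Col1a1 to Col1a2 was 1.12 and 1.88 in the PDAC liver metastases, against 1.55 and 7.3 in the PDAC primaries. In the BC lung metastases it was 4.34 and 0.152, so the chain that was higher differed between them, against 7.1 and 4.16 in the BC primaries. No difference for Col1a2 passed the test, with 0.45 ± 1.03 for PDAC liver metastasis minus PDAC primary (SE, limma adjusted p = 0.989) and -0.58 ± 1.03 for BC lung metastasis minus BC primary (SE, limma adjusted p = 0.999).

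Of the 3 collagens, Col3a1 alone was listed at 0 in both PDAC primaries. It was 7.18 and 1.88 RPKM in the PDAC liver metastases, listed at 0 in the PDAC lung metastasis, and 1.26 and 1.64 RPKM in the BC lung metastases, against 3.37 and 19.0 RPKM in the BC primaries. Both liver metastases were above both PDAC primaries, both BC lung metastases were below both BC primaries, and the PDAC lung metastasis stood with the PDAC primaries. The fitted difference was 2.28 ± 1.03 for PDAC liver metastasis minus PDAC primary (SE, limma adjusted p = 0.786) and -1.94 ± 1.03 for BC lung metastasis minus BC primary (SE, limma adjusted p = 0.974). For PDAC primary minus BC primary it was -3.22 ± 1.03 (limma unadjusted p = 0.0105, adjusted p = 0.257). No fold is given against the PDAC primaries, because an exact 0 in both may be a failed estimate.

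Markers of fibroblasts, the cells best known for making these collagens, were read beside these values. The sum of 8 fibroblast markers was 21.4 and 39.3 RPKM in the PDAC liver metastases, 103 RPKM in the PDAC lung metastasis, and 16.9 and 0 RPKM in the PDAC primaries. It was 22.8 and 76.7 RPKM in the BC lung metastases, against 9.5 and 18.8 RPKM in the BC primaries. In the PDAC libraries this sum was almost all Dcn, the proteoglycan decorin, which was also high in BC lung metastasis 6 (47.1 RPKM). Pdgfra, Pdgfrb, Dpt, Thy1 and Fap, 5 of the 8 markers, were highest in BC primary 5, as the 3 collagens were. Their levels there lay between 0.209 RPKM for Fap and 4.15 RPKM for Pdgfra. The other markers peaked elsewhere and at higher levels. Lum (21.9 RPKM) and Mfap5 (4.91 RPKM) were highest in BC lung metastasis 6, and Dcn (103 RPKM) in the PDAC lung metastasis. In PDAC primary 5 all 8 markers were listed at 0 while Col1a1 was 10.4 RPKM and Fn1 was 115 RPKM. These listings at 0 may be failed estimates, since 32.9% of genes with at least 5 RPKM in PDAC primary 1 were under 0.1 RPKM there. In the PDAC lung metastasis Dcn at 103 RPKM was the only one of the 8 above 0, beside Col1a1 at 0.0239 RPKM and both other collagens at 0. Pdgfra, a receptor that defines many fibroblasts, was 0.301 and 0.0204 RPKM in the PDAC liver metastases and listed at 0 in the other 3 PDAC libraries, against 1.5 to 4.15 RPKM in the BC libraries. The part of such cells in the collagen values was not tested.

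**Figure D2:**
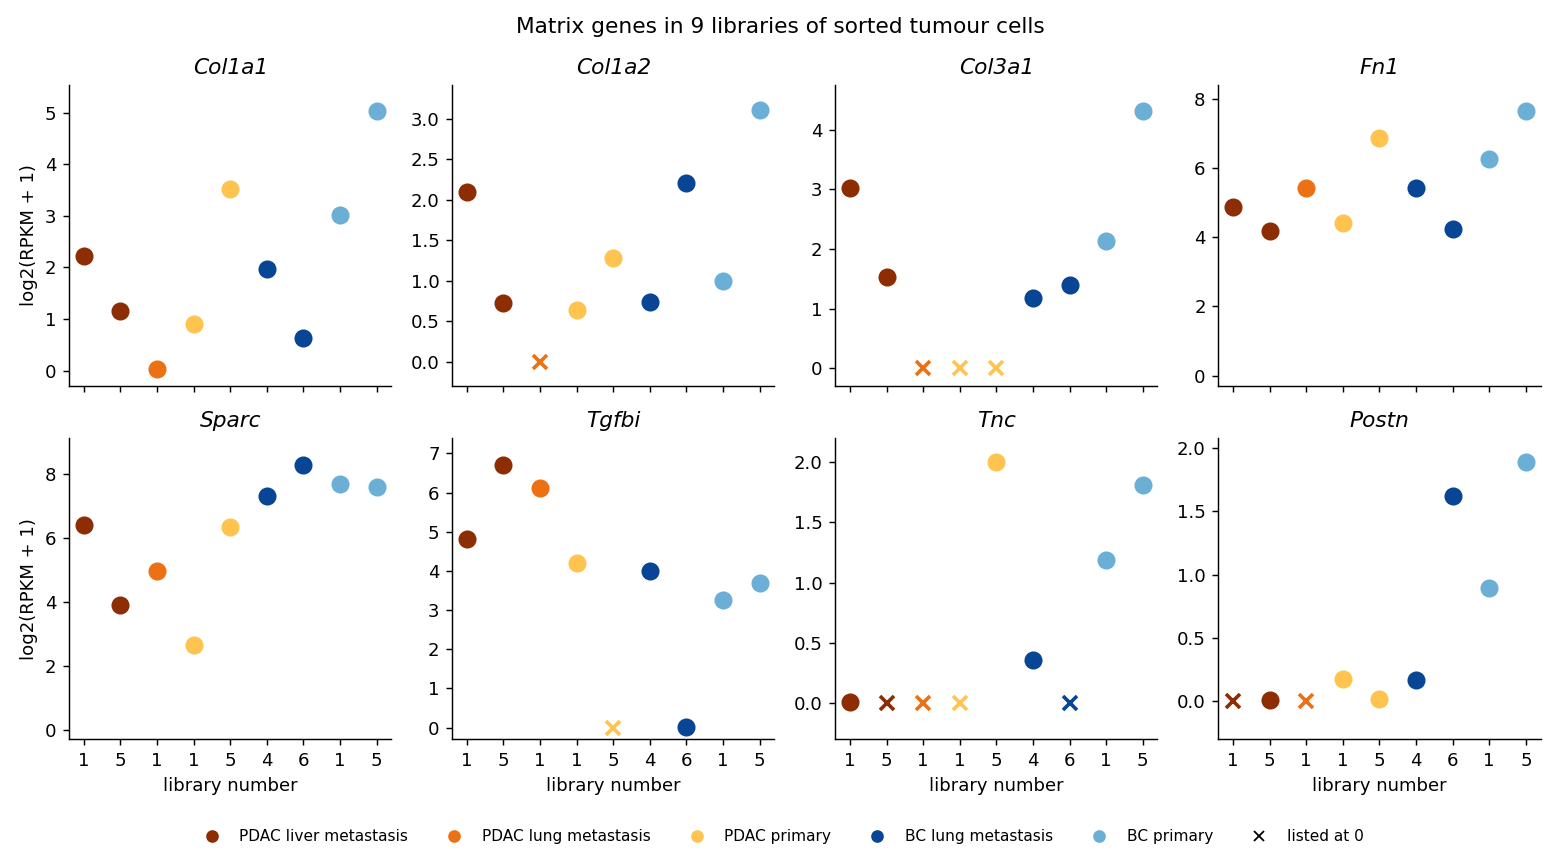
Level of each matrix gene in each library as log2(RPKM + 1), with 1 point per library, colours for the groups and crosses for values listed at 0; the vertical axes differ between genes. BC primary 5 is the highest point for Col1a1 (31.7 RPKM), Col1a2 (7.61 RPKM), Col3a1 (19.0 RPKM), Fn1 (198 RPKM) and Postn (2.7 RPKM), and PDAC liver metastasis 5 is the highest for Tgfbi (104 RPKM).

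Fn1, the fibronectin gene, was above 17 RPKM in every library, the only one of the 8 besides Sparc without a value near 0. It was 28.1 and 17.2 RPKM in the PDAC liver metastases, 41.5 RPKM in the PDAC lung metastasis, and 20.4 and 115 RPKM in the PDAC primaries. It was 41.9 and 17.8 RPKM in the BC lung metastases, against 75.0 and 198 RPKM in the BC primaries. Both BC metastases were below both BC primaries, and the 3 PDAC metastases overlapped the PDAC primaries. The difference for BC lung metastasis minus BC primary was -2.12 ± 0.96 (SE, limma unadjusted p = 0.0521, adjusted p = 0.974). A fit on the 4 BC libraries alone gave Fn1 an adjusted p of 0.067 in limma, still above the threshold of 0.05. For PDAC liver metastasis minus PDAC primary the difference was -1.12 ± 0.96 (SE, limma adjusted p = 0.894), and without PDAC primary 5 it was 0.1.

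Sparc, a collagen-binding glycoprotein, was higher in every BC library than in every PDAC library. It was 83.2 and 13.8 RPKM in the PDAC liver metastases, 30.4 RPKM in the PDAC lung metastasis, and 5.24 and 80.3 RPKM in the PDAC primaries. It was 159 and 312 RPKM in the BC lung metastases, against 205 and 194 RPKM in the BC primaries. Within each model the metastases and primaries overlapped. The difference for PDAC primary minus BC primary was -3.15 ± 1.18 (SE, limma unadjusted p = 0.0234, adjusted p = 0.307). Without PDAC primary 5, the higher of the PDAC primaries, the difference was -5.01 and passed (limma adjusted p = 0.0376), as did 1.63% of all genes in that fit, with the lone PDAC primary assumed to vary like the other groups. The metastasis differences were 0.65 ± 1.18 in the liver of the PDAC model (SE, limma adjusted p = 0.981) and 0.16 ± 1.18 in the lung of the BC model (SE, limma adjusted p = 1).

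Tgfbi, an integrin-binding protein named for its induction by TGF-beta, was highest, unlike Sparc, in the PDAC metastases. It was 27.0 and 104 RPKM in the PDAC liver metastases and 68.2 RPKM in the PDAC lung metastasis, against 17.4 RPKM in PDAC primary 1 and a listing at 0 in PDAC primary 5. It was 15.0 and 0.0144 RPKM in the BC lung metastases, against 8.58 and 12 RPKM in the BC primaries. All 3 PDAC metastases were above both PDAC primaries, and the BC groups overlapped. The difference was 3.66 ± 1.65 for PDAC liver metastasis minus PDAC primary (SE, limma unadjusted p = 0.0509, adjusted p = 0.785) and 4.01 ± 2.02 for PDAC lung metastasis minus the same primaries (SE, limma adjusted p = 0.429). Without PDAC primary 5, the library listed at 0, the differences were smaller, at 1.56 and 1.91. Without PDAC primary 1, so that only the listing at 0 remained, they were 5.76 (limma adjusted p = 0.047) and 6.11 (limma adjusted p = 0.0493) and passed, in fits that called 8.41% and 12.6% of all genes.

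Markers of macrophages and neutrophils moved with Tgfbi in part of the libraries. The sum of 7 macrophage markers was 4390 and 707 RPKM in the PDAC liver metastases and 723 RPKM in the PDAC lung metastasis, against 483 and 131 RPKM in the PDAC primaries. It was 123 and 59.1 RPKM in the BC lung metastases, against 182 and 300 RPKM in the BC primaries. The order was not the same throughout: PDAC liver metastasis 1 had the highest macrophage sum and the lowest Tgfbi of the 3 PDAC metastases, and BC lung metastasis 4 had the highest Tgfbi of the BC libraries and a lower macrophage sum than the BC primaries. PDAC primary 5 and BC lung metastasis 6 were the 2 libraries with Tgfbi at or near 0. Emr1, Csf1r and Mrc1 were at 0 in both, while Cd68 was 44.3 and 26.7 RPKM. C1qb was 87.2 RPKM in PDAC primary 5 and 0.0197 RPKM in BC lung metastasis 6. C1qa was 0.0307 and 18.2 RPKM, and C1qc 0.0165 and 14.1 RPKM, in the same order. Both libraries are among those with the fewest genes listed, so values at or near 0 in them may be failed estimates. Neutrophil markers S100a8 and S100a9 followed the order of Tgfbi in all 5 PDAC libraries, with sums of 7600 and 139000 RPKM in the liver metastases and 17200 RPKM in the lung metastasis, against 932 and 11.7 RPKM in the primaries. The part of these cells in the Tgfbi values was not tested.

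**Figure D3:**
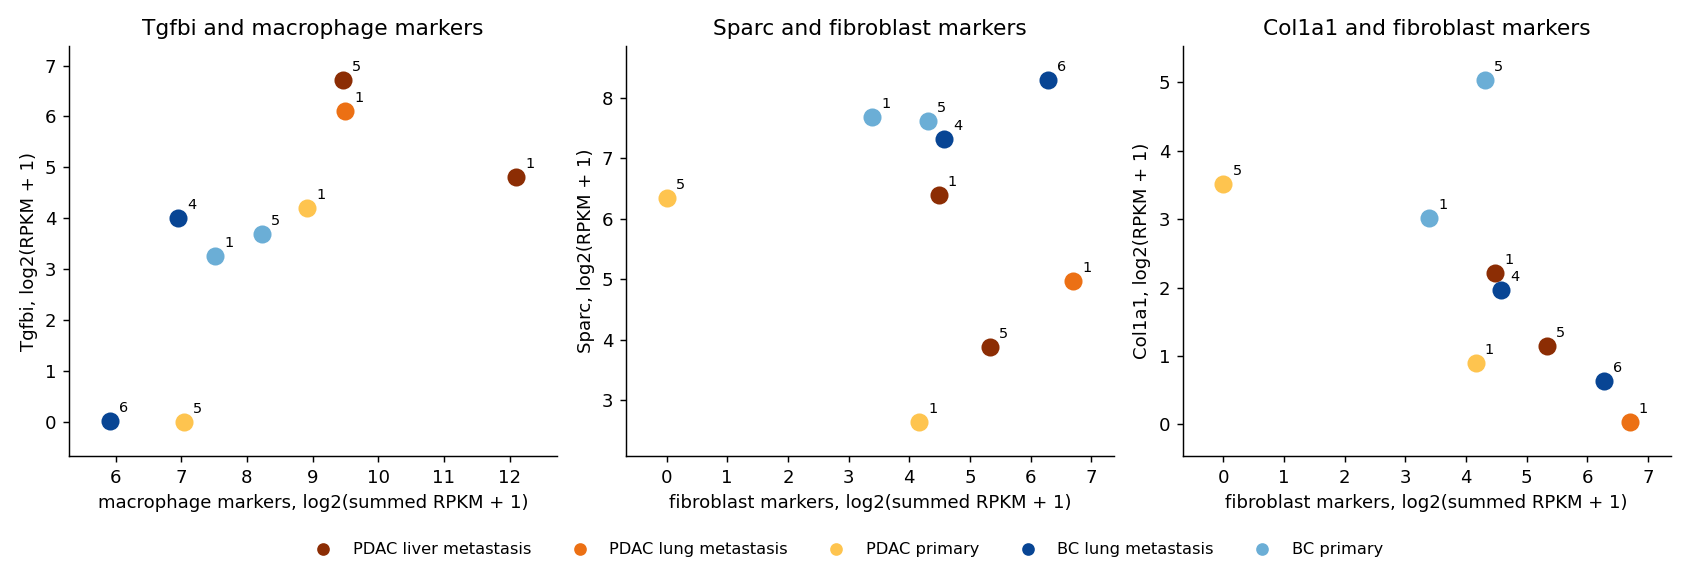
Tgfbi against summed macrophage markers, and Sparc and Col1a1 against summed fibroblast markers, as log2(summed RPKM + 1), with 1 numbered point per library. Tgfbi is 104 and 68.2 RPKM at macrophage sums of 707 and 723 RPKM but 27.0 RPKM at the highest sum, 4390 RPKM, and at the low sums of 131, 123 and 59.1 RPKM it is 0, 15.0 and 0.0144 RPKM. Col1a1 in PDAC primary 5 (10.4 RPKM) stands beside a fibroblast sum of 0, which may rest on failed estimates.

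Tnc and Postn, which encode the matricellular proteins tenascin-C and periostin, were the lowest of the 8 genes. Tnc was 0.00771 RPKM and listed at 0 in the PDAC liver metastases, listed at 0 in the PDAC lung metastasis, and listed at 0 and 2.99 RPKM in PDAC primaries 1 and 5. It was 0.284 RPKM in BC lung metastasis 4 and listed at 0 in BC lung metastasis 6, against 1.27 and 2.51 RPKM in the BC primaries. It reached 1 RPKM in 3 of the 9 libraries, all of them primaries, and both BC lung metastases were below both BC primaries. Over both models, metastasis minus primary was -1.14 ± 0.44 for Tnc (SE, limma unadjusted p = 0.023, adjusted p = 0.853), with PDAC primary 1 at 0 like most metastases. Genes entered the test only with at least 1 RPKM in at least 2 libraries, and Tnc met this through primaries alone. Its lower values in metastases are therefore partly set by that filter.

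Postn was listed at 0 and at 0.00701 RPKM in the PDAC liver metastases, at 0 in the PDAC lung metastasis, and at 0.13 and 0.0122 RPKM in the PDAC primaries. It was 0.123 and 2.08 RPKM in the BC lung metastases, against 0.861 and 2.7 RPKM in the BC primaries. Both PDAC primaries were below both BC primaries, and the BC groups overlapped. The difference for PDAC primary minus BC primary was -1.29 ± 0.64 (SE, limma unadjusted p = 0.0698, adjusted p = 0.422).

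Set out by comparison, no gene of the 8 passed an adjusted p of 0.05 in limma. For PDAC liver metastasis against PDAC primary, 0 of the 8 were called, beside 0.00779% of the 12832 genes tested, and 0 had an unadjusted p under 0.05, beside 6.4% of all genes. Here 4 of the 8 differences were above 0, beside 53.9% of all genes, and the median over the 8 was 0.18, beside 0.08 over all genes. Groups did not overlap for Col3a1 and Tgfbi, 2 of 8 higher beside 15.4% of all genes, and for Postn, 1 of 8 lower beside 10.2%. For PDAC lung metastasis against the same PDAC primaries, 0 of the 8 were called beside 0.584% of all genes, with 0 at an unadjusted p under 0.05 beside 13.8%. The single lung library was above both primaries for Tgfbi only, 1 of 8 beside 23.9%, and below both for Col1a1, Col1a2 and Postn, 3 of 8 beside 34.4%. These shares are close to those of all genes. The place of Postn in both comparisons rests on values at the floor. Its lower primary was at 0.0122 RPKM, an estimated 3 reads, against at most 2 reads in the PDAC metastases.

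For BC lung metastasis against BC primary, limma called 0 of the 8 and 0% of all genes, with 0 of the 8 and 265 of all genes (2.07%) at an unadjusted p under 0.05. The difference was below 0 for 7 of the 8, Sparc being the exception, beside 63.1% of all genes. Both metastases lay below both primaries for Col1a1, Col3a1, Fn1 and Tnc, 4 of 8 beside 27% of all genes, and for none did they lie above, beside 15.8%. Tnc is in that count after entering the test through primaries alone. The median over the 8 was -1.39, beside -0.29 over all genes. Leaving out 1 BC library at a time, 6 of 7 genes tested were below 0 without BC lung metastasis 6, 5 of 8 without BC lung metastasis 4, 7 of 8 without BC primary 1, and 5 of 7 with BC primary 5 left out.

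Metastasis against primary over both models, with the model as a covariate, gave 0 of 8 called beside 0.00779% of all genes, 1 of 8 at an unadjusted p under 0.05 (Tnc) beside 4.89%, and 0 of 8 with groups that did not overlap beside 0.366% higher and 0.538% lower. Since Tnc passed the filter through primaries alone, its place here is partly set by that filter. For PDAC primary against BC primary, 0 of 8 were called beside 0.0312% of all genes, and 2 of 8, Col3a1 and Sparc, had an unadjusted p under 0.05 beside 13.2%. All 8 differences were below 0, beside 58.4% of all genes, with a median of -1.34 beside -0.31. Under quantile scaling Tnc was above 0 instead, at 0.55, and without PDAC primary 1 Tnc was above 0 at 0.5. The PDAC primaries were below both BC primaries for Col3a1, Sparc and Postn, 3 of 8 beside 31.5% of all genes. Postn, in this count and among the 8 below 0, entered the test through BC libraries alone.

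**Figure D4:**
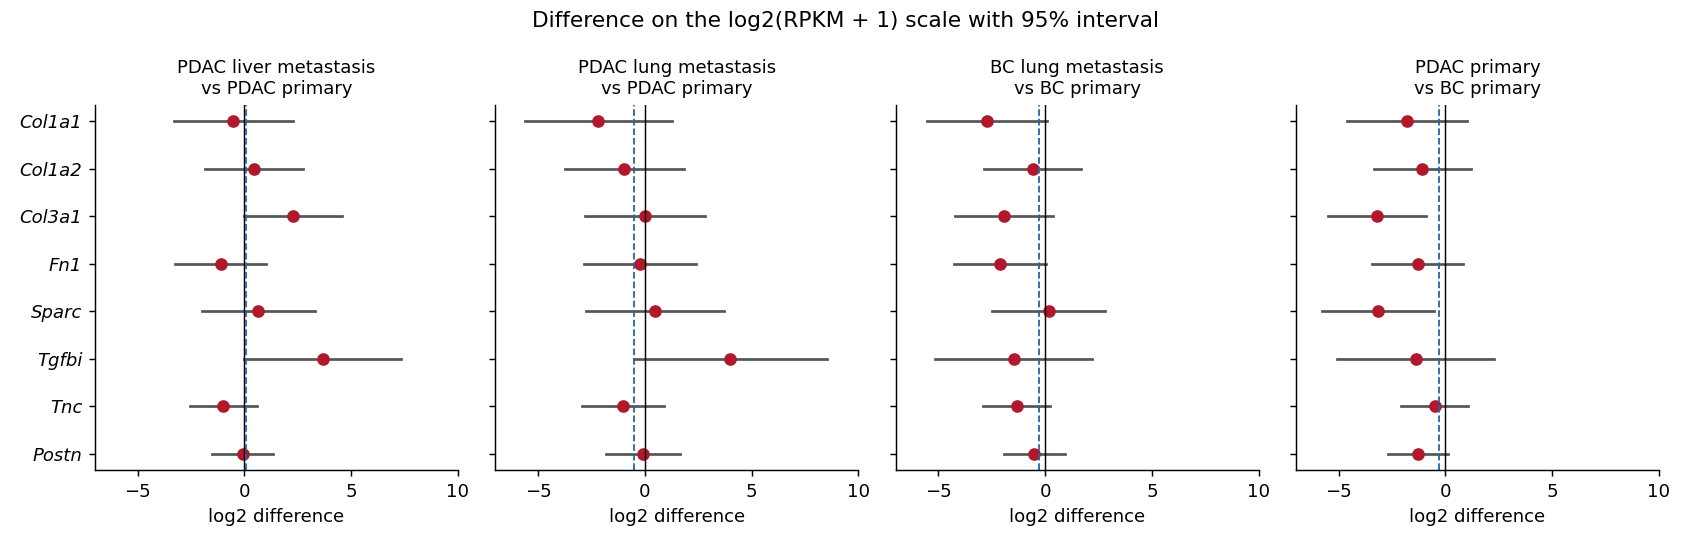
Difference of each matrix gene in 4 comparisons on the log2(RPKM + 1) scale, with points for the limma estimate, bars for its 95% interval and a dashed line for the median of all genes. The intervals leave out 0 only for Col3a1 (-3.22) and Sparc (-3.15) in PDAC primary against BC primary, and neither passed after adjustment.

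The metastasis effects of the models were set against each other within the same fit, as the PDAC liver effect minus the BC lung effect. Limma called 0 of the 8 and 0% of all genes, and Col3a1 alone of the 8 had an unadjusted p under 0.05, as did 530 of all genes (4.13%). The difference of effects was 4.21 ± 1.46 for Col3a1 (SE, limma unadjusted p = 0.0158, adjusted p = 0.874) and 5.13 ± 2.34 for Tgfbi (SE, limma unadjusted p = 0.0525, adjusted p = 0.874). It was above 0 for all 8, beside 62.6% of all genes, although under quantile scaling it was above 0 for 5. The other 6 genes had differences of effects between 0.33 for Tnc and 2.20 for Col1a1.

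The 8 genes fell into loose patterns over the 9 libraries, given here as a description across libraries that share 2 models and differ in depth. Fn1 and Tnc ran most alike (r = 0.93), followed by Col1a1 and Tnc (r = 0.89), Col1a1 and Fn1 (r = 0.86) and Col1a2 and Col3a1 (r = 0.80). Tgfbi had a negative r with 6 of the other 7 genes, the lowest with Sparc (r = -0.56), and 0.11 with Col3a1. Among 6452 genes averaging at least 5 RPKM, those most like the mean pattern of the 3 collagens were Tpp2 (r = 0.882), Dag1 (r = 0.856), Antxr2 (r = 0.845), Eif4g1, Ppm1a, Glg1, Nfe2l1 and Col4a1 (r = 0.819), each highest in BC primary 5. Rank correlation with the same pattern was 0.567 for Tpp2 and 0.7 to 0.85 for the others. The 3 collagens were also highest in BC primary 5, and how far r rests on that library was not tested. Dag1 encodes the laminin receptor dystroglycan and Col4a1 a basement membrane collagen.

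For the single genes, the likeness measure was the same. Fn1 was most like Col18a1 (r = 0.931), a basement membrane collagen, Arl4c and Smarca4. Sparc was most like Tns4 (r = 0.938), Acot7 and Impdh2. Tgfbi was most like Snap23 (r = 0.984), Lcp1 (r = 0.98), an actin-bundling protein of leukocytes, and Itgb2 (r = 0.978), the common beta chain of leukocyte integrins. Itgb2 ranged between 0.021 and 230 RPKM and Lcp1 between 0.00336 and 105 RPKM, both highest in PDAC liver metastasis 5 as Tgfbi was. Tnc was most like Map4k3 (r = 0.948), Fads1 and Ephb4, and Postn was most like Abce1 (r = 0.86), Fam102b and Pcyox1.

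Other fibrillar collagens were mostly lower still: 3 of 8 passed the filter of at least 1 RPKM in at least 2 libraries, and 0 were called in any of the 6 comparisons. Col5a1, a chain of the type V collagen that starts fibrils, was 1.87 and 5.69 RPKM in the PDAC liver metastases, listed at 0 in the PDAC lung metastasis, and 0.01 and 0.0301 RPKM in the PDAC primaries. It was 4.42 and 1.26 RPKM in the BC lung metastases, against 7.38 and 13.8 RPKM in the BC primaries. This is the order seen for Col3a1: liver metastases above PDAC primaries, by 2.10 ± 0.98 (SE, limma adjusted p = 0.794), and BC lung metastases below BC primaries, by -1.67 ± 0.98 (SE, limma adjusted p = 0.974). Col11a2 was highest in the PDAC lung metastasis, at 13.1 RPKM, and Col27a1 in PDAC primary 5, at 6.71 RPKM. Of 7 further chains, from collagen VI, fibril-associated collagens and type VIII collagen (Col8a1), 4 were tested and 0 called. Col6a1 was 0 to 0.759 RPKM in the PDAC libraries, against 1.04 to 84.1 RPKM in the BC libraries. Col8a1 and Col16a1 were the next highest of these, with 21.7 and 17.5 RPKM in BC primary 5.

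Genes that make and trim collagen ranged widely in level, and those named here are the 3 highest of each list. Of 13 genes for collagen modification and folding 12 were tested, and 0 were called in any of the 6 comparisons. P4hb, a subunit of the prolyl hydroxylase that also serves other proteins, was 76.7 to 354 RPKM over all libraries, and Ppib, a prolyl isomerase, was 89.9 to 508 RPKM. Serpinh1, the collagen-specific chaperone Hsp47, was 39.7 and 2.74 RPKM in the PDAC liver metastases, 6.37 RPKM in the PDAC lung metastasis, and 12.5 and 27.3 RPKM in the PDAC primaries. It was 199 and 90.6 RPKM in the BC lung metastases, against 151 and 234 RPKM in the BC primaries. Every BC library was above every PDAC library, as for Sparc, and the difference for PDAC primary minus BC primary was -3.27 ± 1.09 (SE, limma adjusted p = 0.271).

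Of 12 genes for procollagen cleavage and cross-linking 9 were tested, and 0 were called in any comparison. Bmp1, a proteinase that removes the procollagen C-propeptide, was 1.74 and 0.648 RPKM in the PDAC liver metastases, 0.0377 RPKM in the PDAC lung metastasis, and 1.84 and 65.2 RPKM in the PDAC primaries. It was 42.1 and 18.8 RPKM in the BC lung metastases, against 127 and 163 RPKM in the BC primaries. In both models the metastases were below the primaries, by -2.69 ± 1.40 in the PDAC liver (SE, limma adjusted p = 0.848) and -2.31 ± 1.40 in the BC lung (SE, limma adjusted p = 0.974). Pcolce, which enhances that cleavage, was 0.913 to 165 RPKM. Loxl3, a lysyl oxidase that cross-links collagen, was 0.0414 to 0.314 RPKM in the PDAC libraries, against 16.2 to 52.2 RPKM in the BC libraries.

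Among 16 other matricellular and matrix glycoproteins 9 were tested and 0 called. Spp1, encoding osteopontin, far exceeded the 8 genes in level, at 158 to 6900 RPKM in the PDAC libraries and 2530 to 6920 RPKM in the BC libraries. Cyr61 ranged between 0.733 and 451 RPKM and Efemp2 between 0.0887 and 124 RPKM, both lowest in the PDAC lung metastasis. Of 8 proteoglycans 5 were tested and 0 called. Dcn, which binds collagen fibrils and is also in the fibroblast list, was 21.1 and 37.8 RPKM in the PDAC liver metastases, against 16.5 RPKM and a listing at 0 in the PDAC primaries. It was 17.9 and 47.1 RPKM in the BC lung metastases, against 5.67 and 8.76 RPKM in the BC primaries, so it was higher in the metastases of both models while Fn1 in BC was lower. Lum reached 21.9 RPKM in BC lung metastasis 6, and Bgn 13 RPKM in PDAC liver metastasis 1.

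Receptors for these proteins were tested for 12 of 17 genes and 0 were called. Itgb1, the integrin beta chain of most collagen and fibronectin receptors, was 28.9 and 18.7 RPKM in the PDAC liver metastases, 26.2 RPKM in the PDAC lung metastasis, and 16.2 and 63.4 RPKM in the PDAC primaries. It was 61.9 and 30.6 RPKM in the BC lung metastases, against 194 and 161 RPKM in the BC primaries, and the difference within BC was -2.00 ± 0.83 (SE, limma unadjusted p = 0.0362, adjusted p = 0.974). Both metastases were below both primaries for 9 of the 12 receptors in BC, beside the 27% of all genes given above. Itgb5 was 21 and 24.5 RPKM in the BC lung metastases, against 71.7 and 54.9 RPKM in the BC primaries, and Cd44 was 11.6 to 95.8 RPKM over all libraries.

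Of 14 TGF-beta ligands, receptors and mediators 13 were tested and 0 called. Tgfb1, the ligand best known for inducing collagen and Tgfbi, was 12.2 and 42.2 RPKM in the PDAC liver metastases and 80.6 RPKM in the PDAC lung metastasis, against 46.8 and 10.7 RPKM in the PDAC primaries. It was 32.7 and 38.0 RPKM in the BC lung metastases, against 46.9 and 37.2 RPKM in the BC primaries. The groups overlapped in each model, apart from the single PDAC lung library, which was above both PDAC primaries. Ltbp3, which binds the latent ligand, was 3.93 and 0.941 RPKM in the PDAC liver metastases, against 5.79 and 35.1 RPKM in the PDAC primaries, and 24.6 and 4.57 RPKM in the BC lung metastases, against 39.7 and 110 RPKM in the BC primaries. Its metastases were below its primaries in both models, by -2.34 ± 1.29 in the PDAC liver (SE, limma adjusted p = 0.85) and -2.49 ± 1.29 in the BC lung (SE, limma adjusted p = 0.974). Smad4, a mediator of the signal, was 24.6 and 36.7 RPKM in the PDAC liver metastases, against 5.27 and 2.23 RPKM in the PDAC primaries, a difference of 2.79 ± 1.04 (SE, limma unadjusted p = 0.0225, adjusted p = 0.618). In BC it was 19.5 and 3.85 RPKM in the lung metastases, against 31.0 and 34.3 RPKM in the primaries, a difference of -1.76 ± 1.04 (SE, limma adjusted p = 0.974).

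Markers of cells that could accompany sorted tumour cells were also read. Hepatocyte markers summed to 819 and 2140 RPKM in the PDAC liver metastases, against 1.91 and 248 RPKM in the PDAC primaries, and Apoa2 was the 1 gene of these lists called there (8.78 on the log2 scale, limma adjusted p = 0.0425). In PDAC primary 5 the hepatocyte sum was almost all Apoa1, at 245 RPKM. Endothelial markers summed to 332 RPKM in the PDAC lung metastasis, against 3.74 and 0 RPKM in the PDAC primaries, with Cldn5 called (8.24 on the log2 scale, limma adjusted p = 0.0335). Cldn5 alone was 302 RPKM of that endothelial sum, and the other endothelial markers were 2.67 to 10.1 RPKM in the PDAC lung metastasis. Hepatic stellate markers, of a collagen-making cell of the liver, were all 4 at 0 in PDAC liver metastasis 1 and summed to 1.42 RPKM in PDAC liver metastasis 5, where Col3a1 was 7.18 and 1.88 RPKM. Neutrophil markers, given above for both models, summed in BC to 2090 and 1350 RPKM in the lung metastases, against 23.5 and 23.1 RPKM in the primaries. Neutrophil markers were therefore higher in every metastasis than in any primary of the same model. Platelet markers, of a blood element that carries stored matrix proteins, summed to 464 and 465 RPKM in the PDAC liver metastases and 178 RPKM in the PDAC lung metastasis, against 49.6 and 56.9 RPKM in the PDAC primaries. In PDAC primary 5 the platelet sum was almost all Gp9, at 56.8 RPKM. Pericyte and smooth muscle markers summed to 18.9, 4.02 and 89.0 RPKM in PDAC liver metastases 1 and 5 and the PDAC lung metastasis. They summed to 7.49 and 24.6 RPKM in the PDAC primaries, to 11.3 and 119 RPKM in the BC lung metastases, and to 3.95 and 5.67 RPKM in the BC primaries. Each of these sums was mostly Acta2 alone, except in PDAC primary 5, where Rgs5 was 24.5 RPKM and Acta2 0.0179 RPKM. The part of these cells in the values of the 8 genes was not tested.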

How the data were processed

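RNA was sequenced from 9 libraries of sorted cells. Per the labels' protocols, at least 100 ng of total RNA entered SMART-seq v4 and Nextera XT library preparation, which does not mark strand. Per the submitters' processing notes the build was mm9, with aligner and counter not given in the sources used here. In 1 deposited table the authors gave values for 23799 genes, read here as RPKM: low values multiplied by gene length (GENCODE M21) were within 0.02 of whole reads for 62.5 to 74.2% of values, against 2.3 to 3.4% without length. Reads on genes were estimated from these lengths at 21300000 to 128000000 per library, and 166 genes were at 0 throughout. These estimates are rough, since they can exceed the total by which a library was scaled.

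The test was limma 3.58.1 (R 4.3.3, statmod 1.5.0) with trended, robust moderation of log2(RPKM + 1), over the 12832 genes that reached 1 RPKM in 2 libraries or more, two-sided, with Benjamini-Hochberg adjustment and a threshold of 0.05. All 9 libraries entered 1 fit with a mean per group. The script was tested on simulated data with independent libraries and less spread than these data, so that test does not give its power or error rate here. PDAC libraries of the same number share age and genotype labels, and the submitters call metastases matched. The numbers were taken as pairs only in the replicate block, an alternative. The reported fits had no term for the number, so their p-values treat matched PDAC libraries as independent. Within the number 1 pair of primary and liver metastasis, deviations from the group mean correlated at -0.165 over genes. With 2 libraries per group the other pair must give the same value, so it is no separate check. The alternatives were another pseudocount, 2 other filters, 2 other scalings, fits on the compared groups alone, limma without trend or robust moderation, the replicate block, and leaving out libraries.

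The 8 genes and all lists were chosen with earlier results of these data known. All 8 are named throughout. Other lists are named by called genes, otherwise the 3 highest by mean RPKM, and the genes most like each member were taken by r. Pdgfra, Pdgfrb, Dpt, Thy1, Fap, Mfap5, Emr1, Csf1r, Mrc1 and Cd68 were named after their values were seen.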

Additional observations from a re-analysis of the deposited data

Results flagged for a closer look

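Col3a1 had opposite directions in the PDAC liver and the BC lung. Both PDAC liver metastases (7.18 and 1.88 RPKM) were above both PDAC primaries (listed at 0), and both BC lung metastases (1.26 and 1.64 RPKM) were below both BC primaries (3.37 and 19.0 RPKM). The PDAC lung metastasis was listed at 0 like the PDAC primaries, and these listings may be failed estimates. The difference between the PDAC liver effect and the BC lung effect was 4.21 on the log2(RPKM + 1) scale (limma unadjusted p = 0.0158), and it did not pass over all genes (limma adjusted p = 0.874). Over the alternatives it ranged between 3.12 and 7.65, with limma adjusted p between 0.187 and 1.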

How the results depend on the processing

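Of 789 values of the 8 genes under 18 other settings, 51 changed sign and 3 passed the threshold where the reported value did not. Direction held under every setting run for, among others, Col1a1, Fn1, Tnc and Col3a1 in BC and Tgfbi, Col3a1 and Postn in the PDAC liver. It also held for the Col3a1 and Tgfbi differences of effects. In these BC and PDAC liver comparisons the groups did not overlap, so leaving out libraries could not have changed the sign. The same applies to the Col3a1 difference of effects. The Postn direction in the PDAC liver rests on values at the floor, with an estimated 2 reads at most in the metastases against 3 in PDAC primary 5. Tnc passed the filter through primaries alone. All values that follow are log2 differences, and the cause of a change in sign was not tested. With a pseudocount of 0.1, Col3a1 over both models was 0.82. Quantile scaling, which moved the all-gene median in BC to 0.07, gave Sparc -0.47 and Postn 0.41 in BC, Col1a2 -0.27 in the PDAC liver, Tnc 0.55 between primaries, and differences of effects of -0.26 for Col1a2, -0.54 for Tnc and -1.02 for Postn. Rescaling every library to an equal sum without haemoglobin, which moved that median to -0.71, gave Sparc -0.33 in BC and -0.01 over both models. With the replicate block by PDAC number, Fn1 in the PDAC lung was 0.21, 0 of the 8 were called in each of 5 comparisons, as without it, and the smallest limma adjusted p of the 8 was 0.478, between primaries; the block changed no call of the 8.

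With 1 library left out at a time, no member was called except where named. The count of called members was 0 to 1 in the PDAC liver and PDAC lung comparisons and between primaries, where 1 gene passed: Tgfbi without PDAC primary 1, where 1032 and 1547 of 12278 genes were called in the liver and lung, and Sparc without PDAC primary 5, where 205 of 12614 were. In BC the range was -1.64 to 0.48 for Col1a2, -0.32 to 0.64 for Sparc, -3.46 to 0.52 for Tgfbi and -0.99 to 0.23 for Postn. In the PDAC liver it was -1.82 to 0.78 for Col1a1, -0.23 to 1.14 for Col1a2, -2.34 to 0.1 for Fn1, -1.2 to 2.5 for Sparc and -1.99 to 0.01 for Tnc. In the PDAC lung it was -1.45 to 0.99 for Fn1 and -1.37 to 2.33 for Sparc. Over both models it was -0.6 to 0.16 for Col1a2, -0.59 to 0.68 for Col3a1, -0.45 to 1.14 for Sparc, -0.12 to 2.61 for Tgfbi and -0.41 to 0.02 for Postn. Between primaries it was -3.48 to 0.72 for Tgfbi and -1.5 to 0.5 for Tnc. For the difference of effects it was -0.02 to 2.09 for Col1a2, -0.22 to 2.22 for Fn1, -1.36 to 2.34 for Sparc, -0.67 to 1.32 for Tnc and -0.33 to 0.9 for Postn.

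Settings chosen after seeing the data left out more libraries. Without the 3 libraries with the fewest genes above 0, Sparc was -0.32 and Tgfbi 0.52 in BC, Col1a1 0.78, Fn1 0.1 and Tnc 0.01 in the PDAC liver, Col3a1 0.11 over both models and Tgfbi 0.72 between primaries. Without the 2 libraries with the lowest epithelial marker sum, Col1a1 was 0.01 in the PDAC liver, and over both models Col1a2 was 0.11 and Col3a1 0.05. Genes called among all tested ranged over the settings between 0 and 1032 in the PDAC liver (reported 1), 0 and 1547 in the PDAC lung (75), 0 and 73 in BC (0), 0 and 10 over both models (1), 0 and 803 between primaries (4), and 0 and 30 for the difference of effects (0). Groups of 1 or 2 libraries and values near 0 limit the precision of every comparison.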

Other observations

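Single libraries stood out for matrix genes outside the 8. Mfap2, a microfibril protein, was 9.89 and 0.454 RPKM in the PDAC liver metastases and 31.8 RPKM in the PDAC lung metastasis, and it was listed at 0 in both PDAC primaries. Ctgf was 167 RPKM in PDAC primary 5, against 0 to 26.2 RPKM in the other 8 libraries. Lox and Loxl2, which cross-link collagen, were 8.25 and 20.6 RPKM in the same PDAC primary, where Col1a1 was 10.4 RPKM, and Lox was listed at 0 in the other 4 PDAC libraries. Sparcl1, a relative of Sparc, was 21.4 RPKM in the PDAC lung metastasis and listed at 0 in both PDAC liver metastases. These genes were chosen after their values were seen.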
